A study of Mus musculus with 3 samples.

Results

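Solute carriers are the largest group of membrane transporters in mammals, and 176 of their genes were measured above a brightness threshold in cultured naive CD4+ T cells. The members were chosen by name and by signal, out of 19935 genes with a probe set carrying exactly 1 gene symbol. The array annotation held 364 genes with a solute carrier symbol. Of these, 8 were set aside, namely Slc2a1, Slc2a3, Slc16a1, Slc16a3, Slc6a8, Slc30a1, Slc39a6 and Slc39a10. Among the remaining 356 genes, 176 reached an intensity of 187.11, the median of all values, on at least 1 array and 180 did not. They belong to 43 families and stand among 11003 genes of all kinds past the same threshold. Because the signal itself chose the members, their brightness is no finding, and 5 of them are carriers by name alone. These are the scaffold protein genes Slc9a3r1 and Slc9a3r2, the adaptor gene Slc4a1ap, the opposite-strand gene Slc7a6os and the pseudogene Slc2a4rg-ps.

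The T cells were taken from C57BL/6 mice, wild type and 8 weeks old. One culture received IL-21, one received IL-6 with TGFb1 (the pair used to obtain Th17 cells), and the control culture received medium with vehicle. Each culture was hybridized to 1 array, so the differences are between single arrays, with no estimate of the spread between cultures and no test. Doses, the time in culture, the number of mice and the way the T cell receptor was stimulated, if at all, are not given in the sources used here.

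A T cell that leaves its resting state imports amino acids, sugars, phosphate, iron and zinc through carriers of the plasma membrane, and moves metabolites into mitochondria through the Slc25 family. Carriers of the Golgi and endoplasmic reticulum supply nucleotide sugars for glycoproteins. The large neutral amino acid transporter formed by Slc7a5 and Slc3a2, the glutamine carriers Slc1a5, Slc38a1 and Slc38a2, and the lysosomal arginine sensor Slc38a9 are known for feeding or informing the mTORC1 growth pathway in activated T cells.

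Median intensity was 182 for the IL-21 array, 188 for the IL-6 + TGFb1 array and 191 for the medium array. All 7 CD4 T cell markers with a value, such as Cd3e and Cd4, were above the threshold on every array, and their summed intensity was 32859.9, 32404 and 31545 in the same order of cultures. Single markers in the sum differed in opposite directions. Trat1, an adaptor of the T cell receptor complex, measured 1560.4 with IL-21 and 665 with IL-6 + TGFb1, against 2803 with medium (log2 differences -0.84 and -2.07). The costimulatory receptor gene Cd28 differed by 0.41 and 0.51 and Cd5 by 0.21 and 0.44, and the part of these shifts in the carrier values was not tested. None of 5 myeloid markers (sums 469, 448 and 457) and none of 3 NK cell markers (sums 167, 171 and 169) reached the threshold. Single markers of B cells (Cd79b), dendritic cells (Zbtb46), red cells (Slc4a1) and CD8 T cells (Cd8b1) did, and their part in the carrier values was not tested. In the same order of cultures, Cd8b1 measured 731, 616 and 810 and Cd79b 371, 380 and 365, well above the threshold. Zbtb46 (181, 191 and 212) and Slc4a1 (184, 219 and 224) were near it. In a bulk sample, fewer cells that use a gene and less RNA per cell cannot be told apart.

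Most carriers were close to medium in both treated cultures. The highest values belonged to Slc4a11 with IL-6 + TGFb1 (3.37-fold), to Slc25a24 with both treatments (2.03-fold with IL-21 and 1.90-fold with IL-6 + TGFb1) and to Slc35d2 with both (1.57-fold and 1.82-fold). Zinc carriers were among the next, while the urea transporter gene Slc14a1, the glycine transporter gene Slc6a9 and the vitamin C transporter gene Slc23a2 were lower in both. A difference is the log2(intensity + 1) on the first-named array minus that on the second, and a gene was counted as called at a difference of 1 (2-fold) or, more loosely, of 0.5 (1.41-fold).

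With IL-21, 1 member (Slc25a24) was at least 2-fold higher than with medium and 0 were 2-fold lower, where 0.482% and 0.109% of all compared genes were. At the looser difference of 0.5, 4 members were higher (Slc25a24, Slc35d2, Slc39a1 and Slc30a4) and 1 was lower (Slc1a2), against 3.02% and 0.809% of all compared genes. With IL-6 + TGFb1, 1 member (Slc4a11) was at least 2-fold higher and 0 were 2-fold lower, beside 0.673% and 0.364% of all compared genes. By 0.5 or more, 5 were higher (Slc4a11, Slc25a24, Slc35d2, Slc39a8 and Slc4a8) and 2 lower (Slc14a1 and Slc1a2), beside 3.64% and 1.24% in the background. As shares of the 176 members these looser counts are 2.27% and 0.568% with IL-21 and 2.84% and 1.14% with IL-6 + TGFb1, each near its background. Slc1a2 passed the threshold on the medium array only, so its lower direction in both treated cultures was fixed by the choice of members. With a mean intensity at or above the median as filter, 0 members were lower by 0.5 with IL-21 and 1 with IL-6 + TGFb1. The 2 comparisons share the medium array.

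The median difference over the members was 0.04 with IL-21 and 0.03 with IL-6 + TGFb1, and over all compared genes it was 0.04 and 0.02. With IL-21 97.2% of members lay within 0.5 of medium (171 of 176), and with IL-6 + TGFb1 96.0% (169 of 176). Most genes of all kinds did so too, 10582 of 11003 with IL-21 and 10467 of 11003 with IL-6 + TGFb1. The counts within 0.5 given below for single transport groups stand beside that background. More members lay above 0 than below (106 against 49 with IL-21, 107 against 64 with IL-6 + TGFb1), in shares near those of all compared genes. With IL-21 60.2% of members were above 0 and 27.8% below, against 59.8% and 28.6% of all compared genes, and with IL-6 + TGFb1 60.8% and 36.4%, against 56.3% and 36.6%. The split depends on the scaling and on the brightness filter. It became 83 against 93 and 85 against 91 after quantile normalization, and 144 against 32 and 120 against 56 after each array was centred on its median. All compared genes moved alike. After quantile normalization 47.2% and 48.3% of members were above 0, against 45.4% and 48.7% of all. After centring the shares were 81.8% and 68.2% of members, against 82.2% and 68.8% of all. With no brightness filter, over 356 genes, 124 lay above and 167 below with IL-21, and 160 above and 151 below with IL-6 + TGFb1. Exactly equal values on IL-21 and medium were found for 21 members (11.9%, and 11.6% of all compared genes), and on IL-6 + TGFb1 and medium for 5 members (2.84%, and 7.13% of all). The sources used here do not say what made such values equal, so an exact tie cannot be read as a measured lack of change. For genes with 2 bright probe sets, of which there were 629, the gap between the differences of the 2 probe sets had a 95th percentile of 0.41 with IL-21 and 0.37 with IL-6 + TGFb1. That gap measures probe set error within the same arrays, not the spread between cultures.

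**Figure D1:**
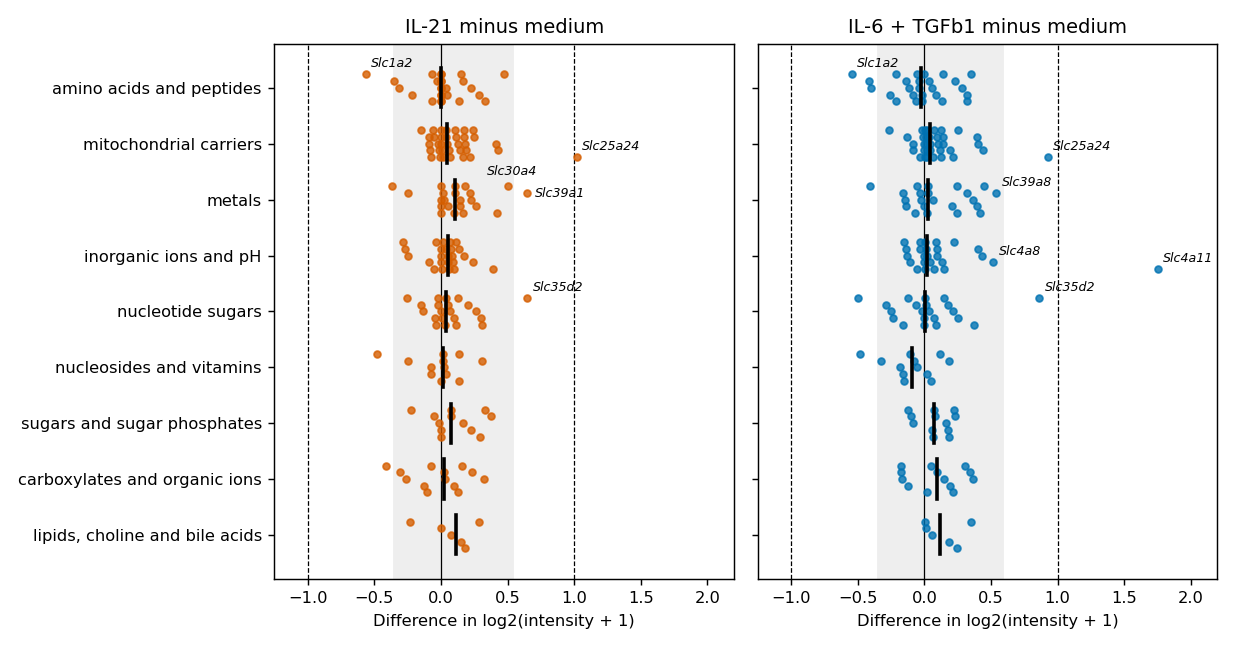
Each point is a solute carrier gene, placed by its difference in log2(intensity + 1) from medium, with IL-21 on the left and IL-6 + TGFb1 on the right, in rows by transport group. Black bars are group medians, the grey band holds the central 95% of all compared genes, dashed lines mark 2-fold, and the 3 ungrouped genes and Slc14a1 are not drawn. Most points sit inside the band, and Slc4a11 and Slc25a24 sit farthest out.

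Slc4a11 encodes a transporter first named for borate and known for moving protons and ammonia in the cornea and kidney. Its intensity was 225 with IL-21 and 720.5 with IL-6 + TGFb1, against 213 with medium. The IL-6 + TGFb1 array stood alone, and the other two arrays were near each other and near the brightness threshold. The difference from medium was 1.75 with IL-6 + TGFb1, rank 22 from the top of 11003 compared genes, and 0.08 with IL-21.

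Slc25a24 is a calcium-regulated carrier that exchanges ATP-Mg for phosphate across the inner mitochondrial membrane. It measured 711 with IL-21 and 666 with IL-6 + TGFb1, against 350.3 with medium. Both treated arrays were high and the medium array low, with differences of 1.02 (rank 49) and 0.92 (rank 97). The IL-21 value was just past 2-fold and was just short of it, at 0.99, with log2(intensity + 16), and at 0.93 after quantile normalization.

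Slc35d2 carries UDP-N-acetylglucosamine and other nucleotide sugars into the Golgi. Its values were 442 with IL-21 and 513 with IL-6 + TGFb1, against 281 with medium. Here too the medium array was the low one, with differences of 0.65 and 0.86. The ranks were 174 and 114 from the top.

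Slc39a1 encodes ZIP1, a zinc importer of the plasma membrane. Intensities were 1693 with IL-21 and 1471 with IL-6 + TGFb1, against 1079.6 with medium, so that the differences were 0.65 and 0.45. A further probe set of Slc39a1 gave 1443 and 1415, against 1014, with differences of 0.51 and 0.48. Both probe sets put the medium array lowest. A pseudogene, Slc39a1-ps, is annotated in the mouse, and its signal cannot be told apart here from that of the gene.

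**Figure D2:**
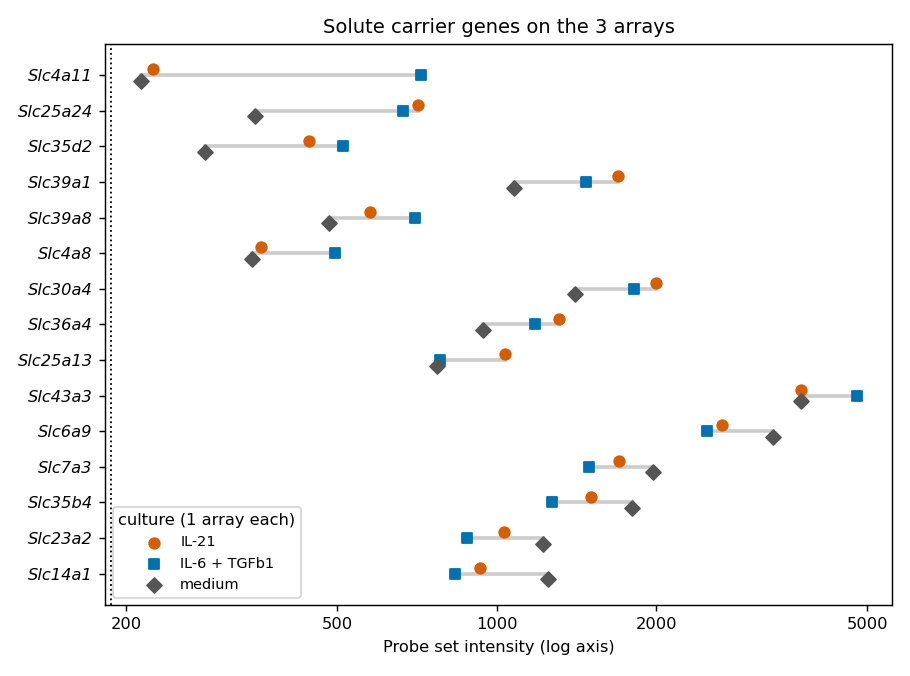
Probe set intensities (log axis) of 15 solute carrier genes on the IL-21 array (circles), the IL-6 + TGFb1 array (squares) and the medium array (diamonds), 1 array each, with small vertical offsets for legibility. The dotted line is the brightness threshold of 187.11, and intensities should be compared within a gene, not between genes. Medium is lowest for the genes in the upper rows from Slc4a11 to Slc43a3, apart from Slc43a3, where IL-21 lay slightly under it, and highest for the last 5.

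Slc39a8 encodes ZIP8, an importer of zinc and manganese that is known in T cells for releasing zinc from lysosomes. It measured 577 with IL-21 and 701 with IL-6 + TGFb1, against 482 with medium, with differences of 0.26 and 0.54. Slc30a4 encodes ZnT4, which moves zinc out of the cytosol into vesicles. Its values were 1997 and 1816, against 1406 with medium, and its differences were 0.51 and 0.37. For both genes the 2 treated arrays lay above medium, with IL-6 + TGFb1 highest for Slc39a8 and IL-21 highest for Slc30a4.

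Promoter sequences are shown for 6 members whose values stood out, to set the data beside the DNA next to their start sites. They were chosen after their values were seen and are not the 6 that differed most. Slc1a2 and Slc4a8, which differed from medium by more than Slc25a13 and Slc35b4, had promoters but are not printed. Slc12a7, Slc23a2, Slc28a1 and Slc36a4, which differed by more than Slc25a13, are not printed either. None of these unprinted promoters held a match to the motifs below, while those of Slc25a13 and Slc35b4 did. RefSeq (GRCm38.p6) promoters were at hand for 140 of the 176 members, with Slc4a11 and Slc35d2 among those not matched, and the 250 bases before the first listed start were read 5′ to 3′. Slc25a24 (chr3:109122899-109123148 on the plus strand), Slc39a1 (chr3:90247942-90248191 on the plus strand), Slc39a8 (chr3:135825029-135825278 on the plus strand) and Slc30a4 (chr2:122702664-122702913 on the minus strand) were higher than medium in both treated cultures. Slc25a13 (chr6:6217174-6217423 on the minus strand) was higher with IL-21 alone, and Slc35b4 (chr6:34177055-34177304 on the minus strand) was lower in both. Capitals mark matches on either strand to TTCNNNGAA (the STAT site), CACGTG (the E-box of Myc and its relatives) or TGATGNAA (the core of the ATF4 element). No match overlapped another.
Slc25a24: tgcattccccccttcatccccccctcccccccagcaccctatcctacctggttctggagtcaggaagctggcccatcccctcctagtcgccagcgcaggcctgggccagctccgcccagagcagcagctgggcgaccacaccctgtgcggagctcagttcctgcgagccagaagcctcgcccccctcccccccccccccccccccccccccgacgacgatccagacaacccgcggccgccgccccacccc
Slc39a1: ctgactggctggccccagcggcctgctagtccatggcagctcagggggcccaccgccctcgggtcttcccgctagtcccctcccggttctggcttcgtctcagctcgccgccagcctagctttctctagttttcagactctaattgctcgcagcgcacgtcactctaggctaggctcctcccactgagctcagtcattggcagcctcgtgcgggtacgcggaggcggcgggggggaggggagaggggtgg
Slc39a8: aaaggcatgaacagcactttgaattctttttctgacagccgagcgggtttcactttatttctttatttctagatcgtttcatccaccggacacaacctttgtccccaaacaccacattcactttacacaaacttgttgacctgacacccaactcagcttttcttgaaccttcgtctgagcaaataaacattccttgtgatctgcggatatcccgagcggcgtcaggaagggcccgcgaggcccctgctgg
Slc30a4: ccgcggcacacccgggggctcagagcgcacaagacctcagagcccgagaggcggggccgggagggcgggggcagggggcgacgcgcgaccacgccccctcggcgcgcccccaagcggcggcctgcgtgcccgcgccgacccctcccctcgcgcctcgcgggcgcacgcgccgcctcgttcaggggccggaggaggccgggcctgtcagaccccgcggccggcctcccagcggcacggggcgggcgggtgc
Slc25a13: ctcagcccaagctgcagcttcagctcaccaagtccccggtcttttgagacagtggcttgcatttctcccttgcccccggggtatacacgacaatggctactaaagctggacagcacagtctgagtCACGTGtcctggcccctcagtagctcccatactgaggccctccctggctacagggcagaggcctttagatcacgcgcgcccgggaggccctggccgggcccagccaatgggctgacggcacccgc
Slc35b4: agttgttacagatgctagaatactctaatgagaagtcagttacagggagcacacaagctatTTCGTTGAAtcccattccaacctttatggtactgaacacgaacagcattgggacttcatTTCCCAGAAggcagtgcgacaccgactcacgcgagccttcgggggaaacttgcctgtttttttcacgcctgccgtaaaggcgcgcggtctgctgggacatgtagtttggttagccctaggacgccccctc

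TTCNNNGAA was found in 9 of the 140 member promoters (6.43%) and in 7.18% of all 27025 promoters of the table. TGATGNAA was found in 4 (2.86%) and in 3.53% of all. CACGTG was found in 16 (11.4%) and in 6.05% of all, and the 16 were Slc12a9, Slc20a1, Slc25a1, Slc25a13, Slc25a33, Slc25a36, Slc30a5, Slc33a1, Slc35a5, Slc35e3, Slc36a1, Slc37a3, Slc38a7, Slc41a3, Slc43a1 and Slc49a4. The members all passed the brightness threshold, while the 27025 promoters also include those of genes that did not. Motif shares over the compared genes alone were not computed, so the CACGTG share cannot be read as a trait of carriers. Slc35b4 had TTCNNNGAA beginning 189 and 130 bases before the start, and Slc25a13 had CACGTG beginning 125 bases before it. The other 4 printed windows held none of these letters, which says nothing of factors that bind elsewhere. Their GC content was 72.8% for Slc25a24, 66.4% for Slc39a1, 47.6% for Slc39a8 and 82.8% for Slc30a4.

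Other metal carriers were within 0.5 of medium, as were 20 of the 22 members of that group with IL-21 and 21 of 22 with IL-6 + TGFb1. The magnesium transporter gene Slc41a1 measured 770.2 and 757, against 576 with medium (0.42 and 0.39). The copper transporter-like gene Slc31a2 measured 570 with IL-21, 690.5 with IL-6 + TGFb1 and 517 with medium (0.14 and 0.42), so IL-6 + TGFb1 stood highest. Slc30a3, which encodes the vesicular zinc transporter ZnT3, went the other way at 280.4 and 273, against 362 (-0.37 and -0.41). The group median was 0.11 with IL-21 and 0.03 with IL-6 + TGFb1, and after quantile normalization it was 0.01 and -0.03. The iron importer gene Slc11a2 (differences 0.01 and -0.07), the haem transporter gene Slc48a1 (0.17 and 0.25) and the endoplasmic reticulum zinc channel gene Slc39a7 (0.11 and 0.03) were close to medium.

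The amino acid and peptide carriers had 26 members of 69 genes, and 25 of them lay within 0.5 of medium in each comparison. Slc3a2, the heavy chain shared by several of these transporters, had the same value of 10719 on all 3 arrays. Such an exact tie cannot be read as a measured lack of change. Slc7a5 measured 10522 with IL-21 and 10755 with IL-6 + TGFb1, against 11042 with medium, which is a difference of -0.07 and -0.04. The glutamine carriers were also close to medium, with -0.03 and -0.12 for Slc1a5, 0.00 and -0.02 for Slc38a1 and 0.00 and -0.06 for Slc38a2. A dimmer probe set of Slc38a1 gave 0.17 and -0.20. Slc38a9 differed by 0.15 and 0.14, and its dimmer probe set was equal on all arrays.

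Within this group Slc6a9, the glycine transporter GlyT1, was lowest among the bright members. It measured 2666 with IL-21 and 2491 with IL-6 + TGFb1, against 3320.0 with medium (-0.32 and -0.41). Slc7a3, a carrier of arginine and lysine, measured 1699 and 1495, against 1970.5 (-0.21 and -0.40), and its relative Slc7a1 3433 and 3102, against 3593 (-0.07 and -0.21). For all 3 genes IL-6 + TGFb1 was lowest, IL-21 intermediate and medium highest. The cystine carrier gene Slc7a11 differed by 0.00 and -0.21. On the higher side Slc36a4, a carrier of proline and tryptophan, measured 1309.8 and 1182, against 944 with medium (0.47 and 0.32). Slc43a3, known as a carrier of purine nucleobases despite its family, measured 3750.25 with IL-21, 4779 with IL-6 + TGFb1 and 3758 with medium, so that IL-6 + TGFb1 alone was higher (0.00 and 0.35).

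Slc1a2, the glial glutamate transporter, had the lowest difference of all members with IL-21 (-0.57, and -0.55 with IL-6 + TGFb1). Its values of 129 and 130.4, against 191 with medium, were dim, and only the medium array carried it past the threshold. The group median was 0.00 with IL-21 and -0.03 with IL-6 + TGFb1.

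Among the mitochondrial carriers, 35 of 46 genes were members and 34 of the 35 lay within 0.5 of medium in each comparison, Slc25a24 being the exception in both. The adenine nucleotide exchangers Slc25a4 (-0.15 and 0.01) and Slc25a5 (-0.09 and -0.04), the phosphate carrier Slc25a3 (-0.05 and -0.02) and the citrate carrier Slc25a1 (0.04 and 0.07), which serve oxidative phosphorylation and lipid synthesis, were near 0. Slc25a13, the aspartate-glutamate carrier citrin of the malate-aspartate shuttle, measured 1037 with IL-21 and 781 with IL-6 + TGFb1, against 771 with medium. The IL-21 array alone was high, with differences of 0.43 and 0.02. Its partner form Slc25a12 measured 5008 and 4583, against 4224 (0.25 and 0.12). Slc25a35, a carrier whose substrate is not well settled, had 277 and 282, against 208 (0.41 and 0.44). For Slc25a30 the values were 1319 and 1470.5, against 1113 (0.24 and 0.40), while the glutamate carrier gene Slc25a22 had 622 and 551, against 662 (-0.09 and -0.27). The group median was 0.05 and 0.04, and 0.01 and 0.00 after quantile normalization. After each array was centred on its median it was 0.11 and 0.06.

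Inorganic ion and pH carriers had 25 members of 55 genes, all within 0.5 of medium with IL-21 and all but Slc4a11 and Slc4a8 with IL-6 + TGFb1. The 25 include Slc9a3r1, Slc9a3r2 and Slc4a1ap, which are carriers by name alone. Slc4a8, a sodium-driven chloride-bicarbonate exchanger, measured 359 with IL-21 and 494 with IL-6 + TGFb1, against 345 with medium (0.06 and 0.52). As with Slc4a11, the IL-6 + TGFb1 array was the high one. Slc12a7, the potassium-chloride cotransporter KCC4, measured 507 and 523, against 387 (0.39 and 0.43), and medium was the low array. The phosphate importer gene Slc20a1 (-0.04 and 0.02), the sodium-potassium-chloride cotransporter gene Slc12a2 (0.17 and 0.10) and the Golgi exchanger gene Slc9a8 (-0.09 and -0.11) were near medium. The group median was 0.05 and 0.02.

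In the nucleotide sugar group, 21 of 27 genes were members, and 20 were within 0.5 in each comparison, with Slc35d2 as the exception. Slc35b4, which carries UDP-xylose and UDP-N-acetylglucosamine, went the other way from Slc35d2. It had 1509 with IL-21 and 1273 with IL-6 + TGFb1, against 1797 with medium, so the medium array was highest and the differences were -0.25 and -0.50, the second just short of a difference of 0.5. Slc35d3 measured 278 and 234, against 286 (-0.04 and -0.29). The bright members Slc35a4, Slc35b1 and Slc35e1 differed by 0.07 and 0.00, 0.03 and 0.09, and 0.20 and 0.21. A dimmer probe set of Slc35a4 gave 0.07 and 0.05.

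Nucleoside and vitamin carriers had 12 members of 18 genes, all within 0.5. Slc23a2, the sodium-coupled vitamin C transporter SVCT2, measured 1032 with IL-21 and 877 with IL-6 + TGFb1, against 1225 with medium (-0.25 and -0.48). The folate carrier gene Slc19a1, which also carries cyclic dinucleotides, measured 3458 and 3209, against 3647 (-0.08 and -0.18), with -0.01 and -0.05 in its dimmer probe set. For both genes IL-6 + TGFb1 was lowest and medium highest. The equilibrative nucleoside transporter Slc29a1 (-0.08 in both) and its lysosomal relative Slc29a3 (0.02 and -0.15) were near medium, and the concentrative transporter Slc28a2 measured 632 and 580.4, against 511 (0.31 and 0.18). The group median was 0.01 with IL-21 and -0.09 with IL-6 + TGFb1, and -0.08 and -0.11 after quantile normalization. After each array was centred on its median it was 0.08 and -0.07, so its sign with IL-21 depends on the scaling.

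Sugar and sugar phosphate carriers (12 of 33 genes) were all within 0.5. The group is made of whole families, so it also counts Slc5a5 and Slc5a6, which carry other substrates, and the pseudogene Slc2a4rg-ps. The glucose 6-phosphate transporter of the endoplasmic reticulum, Slc37a4, measured 1736 with IL-21 and 1503 with IL-6 + TGFb1, against 1340.1 with medium (0.37 and 0.17). Slc2a6, a lysosomal member of the glucose transporter family, measured 686 and 656, against 560 (0.29 and 0.23). The set-aside glucose transporter genes Slc2a1 (0.20 and -0.08) and Slc2a3 (0.32 and -0.28) and the lactate carrier genes Slc16a1 (-0.05 and -0.20) and Slc16a3 (0.83 and 0.43) were measured as well. Slc6a8 was below the threshold, and the zinc carrier genes Slc30a1, Slc39a6 and Slc39a10 lay between -0.09 and 0.14.

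Carboxylate and organic ion carriers (13 of 54 genes) and carriers of lipids and choline (6 of 20 genes) were all within 0.5. Slc22a5, the carnitine importer OCTN2, measured 422 with IL-21 and 437 with IL-6 + TGFb1, against 338 with medium (0.32 and 0.37). Slc16a10, a carrier of aromatic amino acids, measured 685 and 832, against 674 (0.02 and 0.30), with IL-6 + TGFb1 alone higher. Slc27a1, a fatty acid transport protein, measured 383 and 440.2, against 345.0 (0.15 and 0.35). The choline transporter-like gene Slc44a1 measured 577 and 685, against 678 (-0.23 and 0.02), so the IL-21 array was the low one, and its dimmer probe set gave -0.18 and -0.07. Slc44a2, the bright member of that family, differed by 0.00 and 0.01.

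Slc14a1, the urea transporter UT-B, was the only member of the urea and ammonium group. Intensities were 931 with IL-21 and 834 with IL-6 + TGFb1, against 1252 with medium, a difference of -0.43 and -0.59. That was the lowest difference of all members with IL-6 + TGFb1, and medium was the high array. The 3 members outside the groups, Slc49a4 (0.14 and 0.26), Slc66a1 (-0.02 and 0.17) and Slc66a2 (0.03 in both), were near medium.

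The direct comparison of IL-21 with IL-6 + TGFb1 leaves out the medium array. No member was 2-fold higher with IL-21 (background 0.273%), and 1 was 2-fold lower (background 0.191%), namely Slc4a11 at -1.68, that is 3.20-fold lower and rank 8 from the bottom of 11003 genes. At a difference of 0.5 the counts were 0 and 1 again, beside 1.28% and 0.754% of all compared genes. Next on the lower side came Slc4a8 (-0.46), Slc43a3 (-0.35), Slc39a8 (-0.28), Slc16a10 (-0.28) and Slc31a2 (-0.28). On the higher side were Slc25a13 (0.41), the thiamine transporter gene Slc19a2 (686 with IL-21 and 559 with IL-6 + TGFb1, 0.29), Slc35d3 (0.25), Slc28a2b (0.24), Slc35b4 (0.24), Slc25a51, the mitochondrial NAD carrier (0.23), Slc23a2 (0.23) and Slc9b2 (0.23). Slc28a2b is a close copy of Slc28a2, and their signals may be mixed. One culture had IL-21 alone and the other had both IL-6 and TGFb1, so the parts of the single cytokines cannot be told apart. The median over members was 0.00, as over all compared genes. In this comparison the gap between probe sets of 1 gene had a 95th percentile of 0.34, which Slc4a11, Slc4a8, Slc43a3 and Slc25a13 exceeded in size. The central 95% of all compared genes lay between -0.29 and 0.35, and that of the members between -0.28 and 0.24. The share of all compared genes past 0.34 was not computed, so passing it cannot be read as a trait of carriers. That gap measures probe set error within the same arrays, not the spread between cultures.

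**Figure D3:**
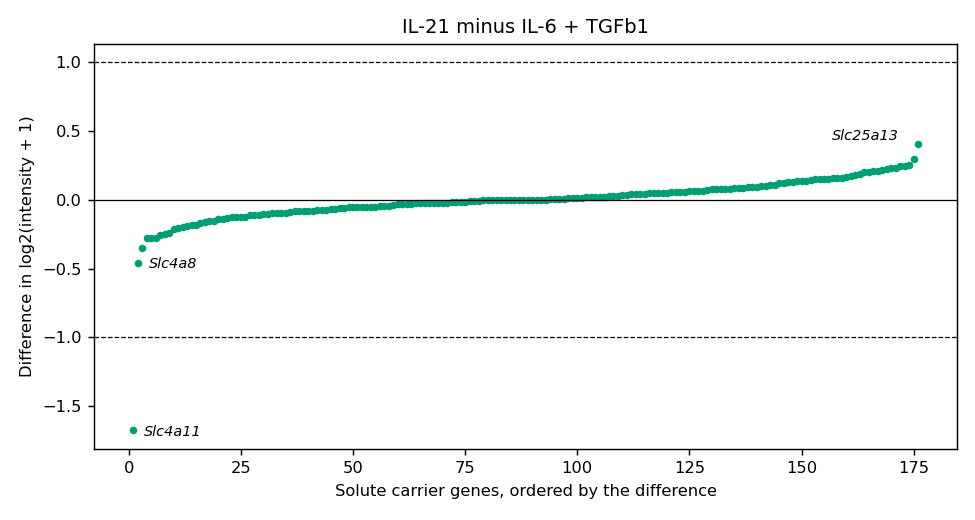
The 176 solute carrier genes in order of their difference in log2(intensity + 1), IL-21 minus IL-6 + TGFb1 (1 array each), with dashed lines at 2-fold. Slc4a11 lies alone at -1.68, and the other genes lie between -0.46 (Slc4a8) and 0.41 (Slc25a13).

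Dim members held several of the differences far from 0, on both sides. All 8 members at or above the threshold on 1 array only passed on the medium array (Slc1a2, Slc28a1, Slc6a12, Slc12a5, Slc4a3, Slc30a2, Slc5a5 and Slc9a3r2), and a gene that passes in this way must be lower in the treated cultures. Of 374 compared genes of all kinds that passed on 1 array only, 262 passed on medium, 77 on IL-6 + TGFb1 and 35 on IL-21. Among the 88 members below a mean intensity of 626 were 8 of the 10 members lowest with IL-21 and 5 of the 10 lowest with IL-6 + TGFb1. They also held 4 of the 10 highest with IL-21 and 8 of the 10 highest with IL-6 + TGFb1, and they are 88 of 176 members. Just inside the threshold were Slc9a3r2 (highest value 189), Slc1a2 (191) and Slc25a43 (193), and just outside it Slc18a3 (187.08), Slc22a13b (186.72) and Slc35e4 (185).

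**Figure D4:**
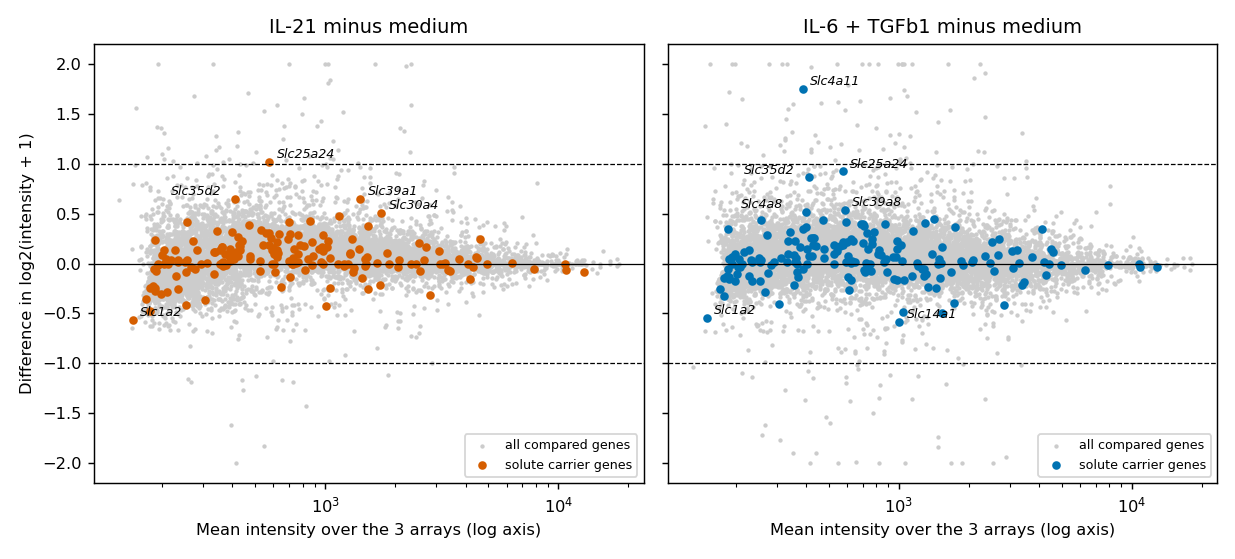
Difference from medium in log2(intensity + 1) against the mean intensity over the 3 arrays (log axis), with IL-21 on the left and IL-6 + TGFb1 on the right. Coloured points are the 176 solute carrier genes and grey points all 11003 compared genes, drawn at 2 or -2 where they lie beyond. The carriers lie within the cloud of other genes at each brightness apart from Slc4a11, Slc25a24 and Slc35d2 at its upper edge, and dim members such as Slc1a2 lie at its lower left edge.

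Genes with symbols of other transporter families were compared in the same way. These lists were made by symbol alone and can hold genes that are not transporters. None of 25 genes with an Abc symbol, 57 with an Atp symbol, 6 aquaporin genes and 2 organic anion transporter (Slco) genes past the threshold was 2-fold different from medium in either comparison. Of all compared genes, 0.482% were 2-fold higher and 0.109% lower with IL-21, and 0.673% and 0.364% with IL-6 + TGFb1. At such shares, lists of this size would hold few or none. Farthest from medium were Atp1b1, a sodium pump subunit, which measured 750.3 with IL-21 and 898 with IL-6 + TGFb1, against 1478 with medium (-0.98 and -0.72), and Atp8b4, a phospholipid flippase gene, at 295 and 168, against 336 (-0.18 and -0.99). Aqp3, a channel for water and glycerol, measured 191 and 321, against 185 (0.05 and 0.79), and Aqp9 476 and 345, against 277 (0.78 and 0.32). The multidrug transporter gene Abcb1b measured 771 and 524, against 771 (0.00 and -0.55). All 16 genes of a list for the amino acid response, the ATF4-driven programme that includes several of these carriers, were compared and lay within 0.5 of medium. Ddit4 was highest at 0.29 and 0.38, and Asns was at -0.06 and 0.00. With IL-21, 3 of the 16 lay above 0 and 10 below, where 59.8% and 28.6% of all compared genes did. With IL-6 + TGFb1, 3 lay above and 11 below, where 56.3% and 36.6% did. Lowest were Mthfd2 with IL-21 (-0.24) and Vldlr with IL-6 + TGFb1 (-0.31). These splits were not recomputed under other scalings. Of all 11003 compared genes, 10582 lay within 0.5 with IL-21 and 10467 with IL-6 + TGFb1.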

How the data were processed

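RNA of 3 cultures of naive CD4+ T cells was measured on 1 array each. The authors deposited a table of linear intensities for 28815 probe sets. The unit was read from the values (25.5 to 20652), and the sources used here do not say how the authors summarized and normalized them. Per the labels' protocols, RNA was labelled with an Affymetrix whole-transcript kit, and per the submitters' processing notes the build was mm8. By the platform's annotation, 21780 probe sets had 1 symbol, 1605 several and 5430 none. The brightest probe set stood for a gene, and all 176 members matched RefSeq by Entrez identifier.

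Differences are of log2(intensity + 1), with no further normalization. With 1 array per group no test was possible, so genes were counted past a log2 difference of 1 or 0.5. The number of arrays limits the precision. Carrier families were grouped by substrate as whole families. A group can thus hold members with another substrate or members that are carriers by name alone, such as Slc7a6os among the amino acid carriers. Named genes were those past 2-fold, the 10 highest and 10 lowest in each comparison, the extremes and the 3 brightest of each group and a fixed set. The members and lists were chosen with earlier results of these data known. Calculations were tested on simulated data and run in Python 3.11.15 with pandas 2.3.3 and numpy 2.4.6. Alternatives changed the pseudocount, the scaling, the floor, the brightness filter, the probe set rule and the membership.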

Additional observations from a re-analysis of the deposited data

How the results depend on the processing

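The counts and medians over all members were recomputed under 8 planned settings and under 1 chosen after seeing the data, a mean intensity at or above the median (167 members). Single named genes were recomputed under 5 settings and group medians under 3, and motif shares and the other transporter families under none. With log2(intensity + 16), 0 members were 2-fold higher with IL-21 than with medium, as after quantile normalization and with the 75th percentile as filter (74 members). The count at least 0.5 lower with IL-6 + TGFb1 was 1 with log2(intensity + 16), 4 after quantile normalization, 1 with the 75th percentile filter and 1 with the mean intensity filter. The count at least 0.5 higher with IL-6 + TGFb1 was 3 after quantile normalization and 0 with the 75th percentile filter. With IL-21, 0 members were at least 0.5 lower after centring on medians, with the 75th percentile filter and with the mean intensity filter, and 2 were at least 0.5 higher with the 75th percentile filter. Under that filter, which leaves out Slc4a11, 0 members were 2-fold higher with IL-6 + TGFb1, and in the direct comparison of the treated cultures 0 were lower with IL-21 by 2-fold or by 0.5. Adding back the set-aside genes gave 1 member, Slc2a3, at least 0.5 higher with IL-21 than with IL-6 + TGFb1. The median of members with IL-21 was 0.10 after centring on medians, as was that of all compared genes. The other 117 summary values were close to those reported. For the named genes, 170 of 1305 values moved by more than the median gap between probe sets of 1 gene (0.06 in each comparison with medium, 0.05 in the direct one), the largest shift being 0.17 (Slc38a1, IL-21 minus IL-6 + TGFb1, averaged over its probe sets), and Slc12a2 with IL-21 was 0.07 after quantile normalization. Of the 1305, 44 changed sign, none with a difference from 0 above 0.10, and Slc25a24 with IL-21 alone crossed the 2-fold line. No paired analysis was possible because each culture had 1 array, and no array could be left out.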
